A study of Homo sapiens with 8 samples.

Results

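The promoters of the nuclear genes for oxidative phosphorylation were examined for chromatin accessibility in human erythroid precursors given stem cell factor (SCF) or vehicle. Members were the protein-coding genes outside the mitochondrial genome whose symbol begins with NDUFA, NDUFB, NDUFC, NDUFS, NDUFV, UQCR, COX4, COX5, COX6, COX7, COX8 or ATP5, together with SDHA, SDHB, SDHC, SDHD and CYC1. The rule took 99 of the 20163 protein-coding genes annotated on chromosomes 1 to 22, X and Y. Of these, 38 encode complex I subunits, 8 complex I assembly factors (symbols beginning with NDUFAF), 4 complex II, 10 complex III, 19 complex IV and 20 complex V. The readthrough genes NDUFC2-KCTD14 and ATP5MF-PTCD1 were counted in complexes I and V, and share the promoter regions of NDUFC2 and ATP5MF. NDUFA4 and NDUFA4L2 were counted with complex IV, of which the NDUFA4 protein is a subunit. A promoter peak was a deposited peak with its summit within 1 kb of an annotated start site of the gene, on either side.

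The data were ATAC-seq peak lists, in which the transposase Tn5 marks accessible DNA. HUDEP-2 cells, an immortalised erythroid progenitor line from umbilical cord blood that depends on doxycycline, dexamethasone, erythropoietin and SCF for growth, carried the control guide RNA sgControl. All cells first spent 5 h in medium without growth factors and then received phosphate-buffered saline (PBS) or 50 ng/mL SCF, the ligand of the Kit receptor, for 1 h, with 50000 cells and 2 libraries per treatment named as biological duplicates. The 4 samples with a guide against EGR1 were not analysed here.

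Oxidative phosphorylation passes electrons from NADH through complex I and from succinate through complex II to ubiquinone, then through complex III and cytochrome c to oxygen at complex IV, and complex V makes ATP from the proton gradient. Most subunits are encoded in the nucleus, while the mitochondrial genome encodes a small set in all complexes but complex II. Erythroid precursors use mitochondria for ATP and for haem synthesis until the organelles are lost as reticulocytes mature. The promoters of these genes are known for sites of NRF-1 (nuclear respiratory factor 1), ETS factors such as GABP, YY1, SP/KLF factors and ERR, and their coactivator PGC-1 alpha is encoded by PPARGC1A.

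The sequences that follow show the promoter DNA under the peaks, 5′ to 3′ on the strand of the gene, in the build GRCh37. For each complex, 1 promoter with an NRF-1 word within 100 bp of the summit and 1 without are given. Each is the highest-ranked among those with a stretch upstream of the gene and outside annotated exons. Higher-ranked promoters without such a stretch were passed over, among them NDUFB4, NDUFS4 and ATP5PO. No such stretch with an NRF-1 word was found for complex IV. None is given for the assembly factors, where 2 regions held the word within 100 bp of the summit. At NDUFAF5 the word lay inside the gene, and the other region was left out of the search for stretches. Capitals mark the words for NRF-1 (GCGCANGCG), ETS (CCGGAAG), YY1 (AAGATGGCG) and SP/KLF (GGGCGG) on either strand, and a match is a description of the letters only.
NDUFA5, chr7:123197959-123198096, minus strand: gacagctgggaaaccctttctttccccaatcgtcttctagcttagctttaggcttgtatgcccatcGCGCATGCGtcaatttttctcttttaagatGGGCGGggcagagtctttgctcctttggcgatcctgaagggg
NDUFV3, chr21:44313271-44313377, plus strand: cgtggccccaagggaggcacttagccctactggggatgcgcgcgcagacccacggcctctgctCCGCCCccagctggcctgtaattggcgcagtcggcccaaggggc
NDUFAF8, chr17:79212892-79213088, plus strand: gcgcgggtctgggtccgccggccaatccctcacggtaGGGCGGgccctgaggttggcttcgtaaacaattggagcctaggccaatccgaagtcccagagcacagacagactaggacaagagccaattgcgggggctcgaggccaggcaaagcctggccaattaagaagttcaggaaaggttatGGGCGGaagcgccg
SDHA, chr5:218270-218412, plus strand: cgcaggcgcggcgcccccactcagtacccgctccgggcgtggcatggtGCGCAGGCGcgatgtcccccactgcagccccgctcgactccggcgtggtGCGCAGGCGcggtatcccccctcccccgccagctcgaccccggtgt
SDHB, chr1:17380575-17380775, minus strand: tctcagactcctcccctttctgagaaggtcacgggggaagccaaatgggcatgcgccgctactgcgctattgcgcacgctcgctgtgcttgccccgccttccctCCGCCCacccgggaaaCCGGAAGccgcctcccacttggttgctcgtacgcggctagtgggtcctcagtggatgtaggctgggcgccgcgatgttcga
UQCRFS1, chr19:29704059-29704141, minus strand: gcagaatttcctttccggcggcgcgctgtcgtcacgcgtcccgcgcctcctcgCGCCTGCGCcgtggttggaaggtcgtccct
UQCR10, chr22:30163154-30163252, plus strand: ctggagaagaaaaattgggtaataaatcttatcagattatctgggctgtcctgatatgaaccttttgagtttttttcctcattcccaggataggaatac
COX8A, chr11:63741880-63742080, plus strand: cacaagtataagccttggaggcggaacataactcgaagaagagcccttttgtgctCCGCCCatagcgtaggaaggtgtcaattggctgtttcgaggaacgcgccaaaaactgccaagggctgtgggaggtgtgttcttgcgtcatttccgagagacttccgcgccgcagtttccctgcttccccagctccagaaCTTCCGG
ATP5MC2, chr12:54069868-54069952, minus strand: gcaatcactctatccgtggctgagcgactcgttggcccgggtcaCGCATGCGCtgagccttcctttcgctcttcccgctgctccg
ATP5F1B, chr12:57039829-57040029, minus strand: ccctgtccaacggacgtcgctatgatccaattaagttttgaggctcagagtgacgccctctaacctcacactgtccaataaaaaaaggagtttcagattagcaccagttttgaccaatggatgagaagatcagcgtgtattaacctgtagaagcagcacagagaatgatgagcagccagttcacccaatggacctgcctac

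SDHA carried 2 NRF-1 words in the stretch shown, and NDUFA5, UQCRFS1 and ATP5MC2 carried 1 each. The promoters of SDHB and COX8A held an ETS word and an SP/KLF word. ATP5F1B, which encodes the catalytic beta subunit of ATP synthase, held none of the 4 marked words, but 4 CCAAT words, the core of NF-Y sites, lay within 100 bp of its summit, and its GC content there was 46.8%. The NDUFAF8 summit had 5 CCAAT words.

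Nearly all members had an accessible promoter in every library. In a bulk assay, a weaker signal in every cell and an open site in fewer cells cannot be told apart. Peaks were called at 92 and 91 member genes in the PBS libraries and at 92 and 92 in the SCF libraries. On average 91.5 ± 0.707 genes were called in PBS and 92 ± 0 in SCF (SD, n = 2), a difference of 0.5 (two-sided exact permutation test, p = 1; with 2 libraries per group the smallest p is 0.333). In all, 91 of the 99 genes had a promoter peak in all 4 lists, where 59.7% of protein-coding genes did. Every one of the 38 complex I, 8 assembly factor and 4 complex II genes was called in all 4 lists, as were 9 of 10 complex III, 13 of 19 complex IV and 19 of 20 complex V genes.

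The 7 genes without a promoter peak in any list were ATP5MGL, COX4I2, COX7A1, COX7B2, COX8C, NDUFA4L2 and UQCRHL. COX7A1 encodes the subunit form of heart and skeletal muscle, COX4I2 a form of lung and hypoxic tissue, COX8C and COX7B2 forms of testis, and NDUFA4L2 a paralog induced by hypoxia. ATP5MGL and UQCRHL are close copies of ATP5MG and UQCRH and how reads that fit both copies were treated is not given in the sources used here. COX6A2, the heart and muscle form of COX6A, was called in 3 lists, with 7 reads over the summit in PBS replicate 1, none called in PBS replicate 2, and 8 and 13 reads in the SCF libraries. Its summit lay 607 bp downstream of the start. Marker genes of heart or skeletal muscle (0 of 4) and of testis (0 of 3) had no promoter peak in any list, nor had the T cell genes (0 of 3), while 11 of 13 erythroid genes did, KIT, GATA1, KLF1, EPOR and ALAS2 among them. Of the other lineages, 2 of 3 B cell, 3 of 4 myeloid 1 of 3 megakaryocyte and 1 of 2 hepatocyte genes had one in at least 1 list.

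The pairs of subunit forms showed the contrast within single subunits. Fold enrichment is the ratio of reads at the summit to the local background, each with the same small constant added. It was 7.56 and 7.92 in PBS and 9.95 and 7.56 in SCF at COX4I1, the ubiquitous form of subunit 4, and COX4I2 had no peak. At COX7A2, the form of most tissues, it was 13.8 and 11.7 in PBS and 14.2 and 12.3 in SCF, and COX7A1 had none. COX8A gave 13.3 and 14.4 in PBS and 15.1 and 14.95 in SCF, with no peak at COX8C. The forms of COX6B broke this pattern. COX6B2, known as the testis form, had fold enrichments of 15.4 and 14.0 in PBS and 14.7 and 14.9 in SCF. Its summit lay 398 bp downstream of the nearest start. At COX6B1 the values were 3.66 and 3.73 in PBS and 4.25 and 3.71 in SCF, over a high local background given below. Reads at the summit differed less. They were 179 and 212 in PBS and 154 and 123 in SCF at COX6B2, and 64 and 91 in PBS and 70 and 59 in SCF at COX6B1.

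**Figure D1:**
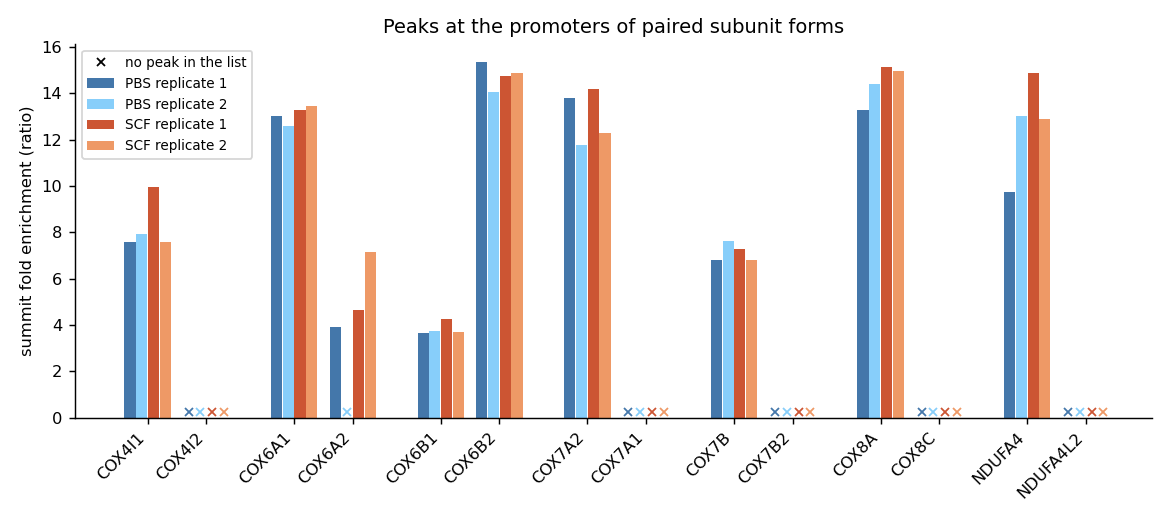
Fold enrichment at the summit (ratio, vertical axis, from 0) of the promoter peak of paired subunit forms, the ubiquitous form first in each pair. Each bar is 1 library and a cross marks a list with no peak. COX4I2, COX7A1, COX7B2, COX8C and NDUFA4L2 had no peak in any list, whereas COX6B2 stood between 14.0 and 15.4. The low bars of COX6B1 stand for 64 and 91 reads at the summit in PBS and 70 and 59 in SCF, over a high local background.

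Members were high among the peaks of each library. The peaks were merged into 43569 regions, of which 101 held a member promoter peak and 95 of these were called in all 4 lists. Within a list, peaks were ranked by fold enrichment on a scale on which 100 is the highest. The median rank of the 95 member regions was 84.4 and 87.1 in PBS and 84.8 and 85.9 in SCF. Over all 11955 promoter regions called in 4 lists the medians were 73.6, 76.0, 72.6 and 74.2 in the same order. The 86 regions of cytosolic ribosomal protein genes, another set that all cells use, had medians of 80.6, 83.9, 80.8 and 83.1, and the 37 of proteasome subunits 80.6, 83.7, 83.9 and 78.9. The median member summit held 77 and 100 reads in PBS and 71 and 65 in SCF, against 58, 78, 54 and 52 over promoter regions. The lists give no read totals. Relative to PBS replicate 1, the genome-wide background recovered from the peaks was 1.43 in the other PBS library and 0.902 and 0.846 in the SCF libraries.

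By complex, the median rank of the strongest region of each gene was highest in complex III, at 93.2 and 93.5 in PBS and 92.2 and 88.5 in SCF. It was 85.2 and 91.5 in PBS and 86.1 and 85.5 in SCF for complex V, and 85.4 and 88.0 in PBS and 88.2 and 87.2 in SCF for complex IV. Complex I, the NADH dehydrogenase, gave 84.4 and 85.4 in PBS and 82.5 and 85.9 in SCF. Complex II gave 77.6 and 84.9 in PBS and 80.3 and 83.2 in SCF over its 4 genes, and the assembly factors 80.8 and 77.3 in PBS and 74.5 and 79.4 in SCF. Apart from complex III, the order of the complexes differed between libraries.

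**Figure D2:**
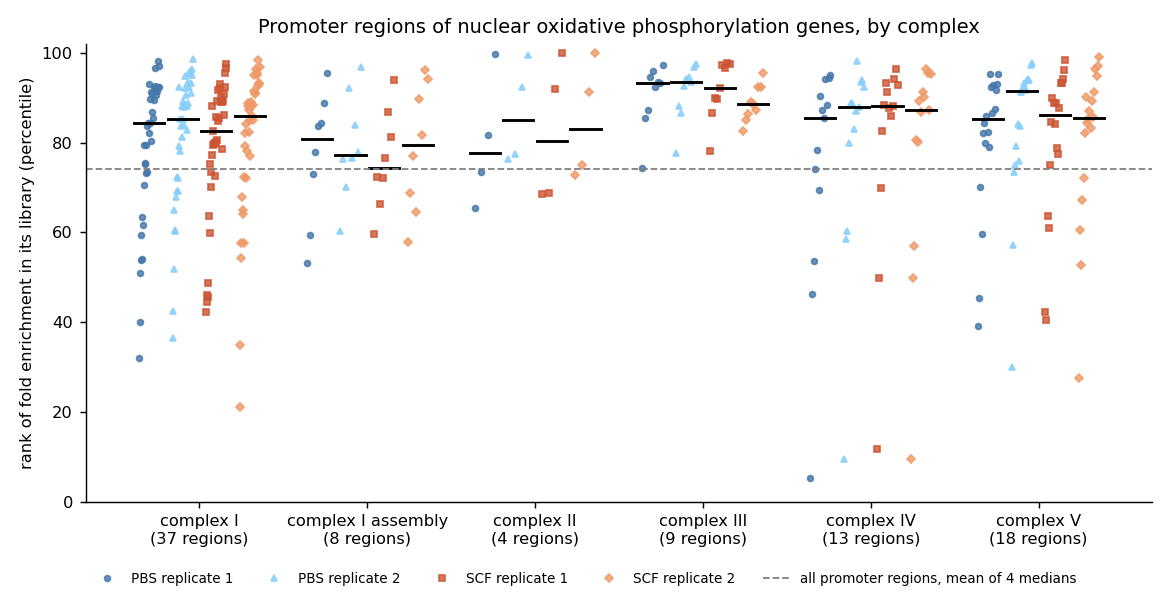
Percentile rank of fold enrichment within each library (vertical axis) for the strongest promoter region of each member gene called in all 4 lists, by complex (horizontal axis). Each point is 1 region in 1 library, short lines are medians, and the dashed line is the mean of the 4 medians of all promoter regions. Complex III medians lie between 88.5 and 93.5, and COX6B1 forms the lowest points of complex IV.

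SDHB, the iron-sulphur subunit of succinate dehydrogenase, had the highest member promoter, at ranks of 99.7 and 99.5 in PBS and 99.9 and 99.9 in SCF. Its fold enrichment was 20.9 and 19.7 in PBS and 22.7 and 22.2 in SCF, so the SCF values lay above the PBS values, and the fitted difference was 0.15 on the log2 scale (95% interval -0.02 to 0.32). SDHA, the flavoprotein subunit that oxidises succinate, stood lower at ranks of 73.5 and 77.4 in PBS and 68.8 and 75.1 in SCF, and the membrane anchors SDHC and SDHD had mean ranks of 70.8 and 89.3. ATP5F1B followed SDHB with ranks of 95.4 and 97.8 in PBS and 98.5 and 99.2 in SCF. ATP5F1A, the alpha subunit, had 2 regions in all 4 lists, one with ranks of 85.9 and 83.7 in PBS and 88.9 and 84.3 in SCF. NDUFS4, a complex I subunit mutated in Leigh syndrome, had ranks of 97.1 and 98.7 in PBS and 97.5 and 96.9 in SCF. UQCRH, the hinge subunit of complex III, and ATP5PO, a stalk subunit of ATP synthase, had mean ranks of 97.0 and 95.9.

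Core subunits of the other complexes were within the same range. NDUFS1, the largest subunit of the electron input module of complex I, ranked 86.8 and 90.6 in PBS and 92.1 and 88.3 in SCF. UQCRC1, a core protein of complex III, ranked 96.1 and 94.2 in PBS and 92.2 and 88.5 in SCF, and CYC1, cytochrome c1, ranked 74.4 and 77.7 in PBS and 78.2 and 82.6 in SCF. COX5B ranked 78.5 and 88.8 in PBS and 88.3 and 80.2 in SCF.

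The lowest member called in all 4 lists was COX6B1 (chr19:36139225-36149684, plus strand), which encodes the ubiquitous form of a subunit that bridges complex IV monomers. Its ranks were 5.30 and 9.46 in PBS and 11.8 and 9.51 in SCF. The reads at its summit were not low: 64 and 91 in PBS and 70 and 59 in SCF, near the member medians. The local background that the fold enrichment divides by was 16.8 and 23.7 reads in PBS and 15.7 and 15.2 in SCF, on average 16.4 times the genome-wide background, where the median member had 5.07 times. Ranked by reads at the summit, COX6B1 had a mean rank of 81.7. ATP5F1D, the delta subunit of ATP synthase, changed likewise from a mean rank of 34.7 by fold enrichment to 85.6 by reads, with a local background 13.0 times the genome-wide one. NDUFB10 went from 36.3 to 72.4 and NDUFS6 from 37.0 to 69.1, with 7.29 and 6.32 times. ATP5IF1, the inhibitor of ATP synthase and the fifth lowest gene by its strongest region, went from 50.9 to 77.8. In the other direction, NDUFS4 had a mean rank of 97.6 by fold enrichment and 72.0 by reads, over a background 1.83 times the genome-wide one. NDUFA11 had the most reads of all member summits, 356 and 457 in PBS and 420 and 304 in SCF. Its background was 30.8 times the genome-wide one, and it ranked 79.6 by fold enrichment. This summit lay at a median of -586 bp from the nearest NDUFA11 start and within 1 kb of starts of other protein-coding genes, VMAC among them. Its reads cannot be assigned to 1 gene. Over all members the median rank was 85.2 by fold enrichment and 83.2 by reads. What raised the local background at these sites was not tested.

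**Figure D3:**
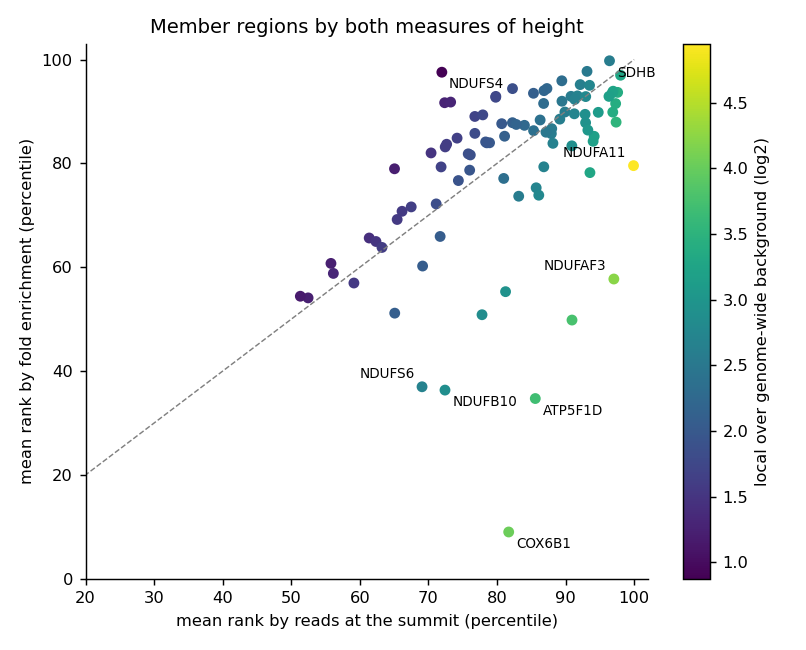
Mean rank over the 4 libraries by reads at the summit (horizontal axis, percentile) and by fold enrichment (vertical axis, percentile) for the 95 member regions, coloured by local over genome-wide background on the log2 scale. The dashed line marks equal ranks. COX6B1 lies at 81.7 by reads and 9.01 by fold enrichment, and NDUFS4 lies above the line.

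The comparison of SCF with PBS asked whether 1 h of Kit activation altered accessibility at these promoters. No member region passed the test. Log2 fold enrichment, centred on the median of each library, was fitted with limma over the 22355 regions called in all 4 lists with Benjamini-Hochberg adjustment, and 0 of 95 member regions had an adjusted p under 0.05, where 0% of all regions did. At an unadjusted p under 0.05 there were 4 member regions, or 4.21%, where 6.86% of all regions were. The smallest adjusted p of a member was 0.633. The median difference of SCF minus PBS was 0.02 on the log2 scale over members, with a range of -0.41 to 0.30, and -0.02 over promoter regions. SCF was higher at 52 member regions and lower at 43. It was higher at 11099 of all 22355 regions and at 5500 of the 11955 promoter regions. The member majority turned under other measures. With reads at the summit in place of the ratio (median -0.050), SCF was higher at 39 of 95, where 11057 of 22355 regions were. With −log10 p it was higher at 35 of 95, where 10225 of 22355 were. Without SCF replicate 1 it was higher at 36 of 96, where 11320 of 24102 were. The 95% intervals of all 95 lay within -0.76 and 0.62, which leaves out a 2-fold difference in either direction, and those of 84 left out a 1.5-fold difference. With reads at the summit, 63 left out a 1.5-fold difference, and the bounds reached -1.01 without SCF replicate 1 and 1.16 without PBS replicate 2, where 95 of 96 left out a 2-fold difference.

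**Figure D4:**
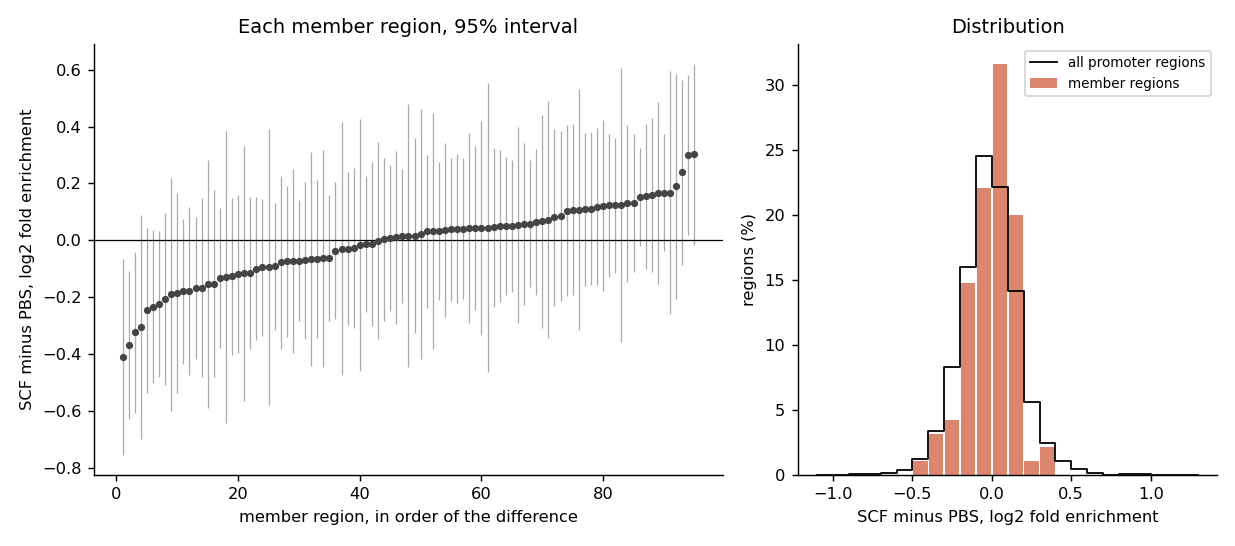
Left, fitted SCF minus PBS difference of log2 fold enrichment (vertical axis) for the 95 member regions in order of size, with 95% intervals from limma. Right, share of regions (%, vertical axis) by difference for members (bars) and all promoter regions (line). Differences of members run from -0.41 to 0.30 and none passed the adjusted test.

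The 4 member regions with an unadjusted p under 0.05 were ATP5F1E, NDUFAF2, NDUFV1 and ATP5MK. ATP5F1E, the epsilon subunit of ATP synthase, had fold enrichments of 15.5 and 14.3 in PBS and 11.5 and 11.6 in SCF, a difference of -0.37 ± 0.12 (SE) on the log2 scale with an adjusted p of 0.633 in limma. NDUFAF2, an assembly factor whose promoter is shared with the repair gene ERCC8, had 11.2 and 14.0 in PBS and 10.3 and 8.52 in SCF, a difference of -0.41 (95% interval -0.76 to -0.07) that was -0.26 without PBS replicate 2. NDUFV1, the subunit that binds NADH, had 14.6 and 13.2 in PBS and 11.7 and 10.5 in SCF, a difference of -0.32. The PBS values lay above the SCF values at all 3. ATP5MK, a small membrane subunit of ATP synthase, had 11.5 and 10.4 in PBS and 13.8 and 13.1 in SCF, a difference of 0.30 (95% interval 0.02 to 0.58).

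Several of the next differences rested on single libraries. NDUFA4 had 9.74 and 13.0 in PBS and 14.9 and 12.9 in SCF, a difference of 0.30 that was 0.09 without PBS replicate 1 and 0.50 without PBS replicate 2. COX4I1, at 0.17, gave -0.04 without SCF replicate 1 and 0.36 without SCF replicate 2. NDUFA12 had 16.3 and 15.3 in PBS and 11.4 and 15.4 in SCF, a difference of -0.25 that was -0.04 without SCF replicate 1 and -0.47 without SCF replicate 2. ATP5MG, at -0.31, gave -0.49 without SCF replicate 1 and -0.13 without SCF replicate 2. NDUFA1 had 7.59 and 7.91 in PBS and 9.04 and 8.59 in SCF, a difference of 0.19 (95% interval -0.21 to 0.59).

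Ranks within the libraries were compared as well. No member region had both SCF ranks at least 10 points above both PBS ranks, where 2.56% of the regions called in all 4 lists did, and none had both PBS ranks as far above both SCF ranks, where 3.04% did. Among the 11955 promoter regions called in all 4 lists there were 128 such gains and 254 such losses. At 43 of the 95 member regions the higher PBS rank was over 90, so a gain of 10 points could not occur there. This held at 3952 of all 22355 regions and at 3114 of the 11955 promoter regions. With no minimum distance, both SCF ranks were above both PBS ranks at 17 member regions (17.9%), where 16.0% of all regions were. Both PBS ranks were above both SCF ranks at 15 (15.8%), where 19.3% were, and the treatments overlapped at 63. Over promoter regions these shares were 14.3% with SCF above and 21.1% with PBS above. The 17 included SDHB, ATP5F1B, CYC1, COX8A, COX6A1, COX6C and COX6B1. Among the 13 genes of complex IV there were 5 of these and 0 of the other direction. At COX6B1 the nearest ranks were 9.46 in PBS and 9.51 in SCF. Ranked by reads at the summit, the treatments overlapped at COX6A1, COX6C and COX6B1, while SCF stayed above PBS at COX8A and NDUFA4. The 15 included UQCRC1, NDUFV1 and ATP5F1C, and 1 of them was a weaker second region of NDUFS3, whose strongest region overlapped between treatments. No member region was called under SCF alone (in both its libraries and no PBS library), where 1.65% of all merged regions were, and none under PBS alone, where 2.37% were. Of the 15273 merged promoter regions, 116 were called under SCF alone and 201 under PBS alone.

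The replicate spread at members was set beside counting error. The median absolute log2 difference between the PBS replicates was 0.14 over the 95 member regions, and the median SD from counting alone was 0.22. For the SCF replicates these were 0.19 and 0.24. These are unlike measures, since a median absolute difference is usually smaller than the SD of the same spread. The shares within the counting SD are the like comparison. The PBS replicates differed by less than 1 counting SD at 67.4% of member regions and by less than 2 at 96.8%, and the SCF replicates at 62.1% and 91.6%. Across treatments the median differences were between 0.16 and 0.22.

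Member summits lay close to the start. The median position relative to the nearest start site was -12.5 bp (upstream) over the 91 genes called in all 4 lists, and 87 of them (95.6%) were within 250 bp, where 88.6% of the 12035 protein-coding genes with a promoter peak in all 4 lists were on the same measure. Among genes with a peak, COX6A2 at 607 bp and NDUFA11 at a median of -586 bp lay farthest from a start, and peaks between 1 and 2 kb away, outside the limit, were found at COX7B2 and NDUFA4L2. Of the 91 genes, 42 (46.2%) had a protein-coding gene starting on the opposite strand within 1 kb of a start of the member, against 25.9% of those 12035 genes. Examples are SDHA with CCDC127, SDHD with TIMM8B, NDUFS1 with EEF1B2, COX4I1 with EMC8, NDUFS6 with MRPL36 and UQCRH with LRRC41. At 45 of the 95 member regions the peak lay within 1 kb of a start of another protein-coding gene, and its signal cannot be assigned to either gene.

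NRF-1 words, and YY1 words in a wider window, were more frequent beside member summits than over all promoter regions, and SP/KLF words less frequent. These shares are descriptions and were not tested. Within 100 bp of the summit, 18 of 95 member regions (18.9%) held the NRF-1 word GCGCANGCG, against 9.25% of promoter regions, 9.30% of ribosomal protein regions and 2.70% of proteasome regions. With the summits of each library in turn, the member share was 14.7% and 20% in PBS and 21.1% and 17.9% in SCF, and the promoter share lay between 8.77% and 9.18%. By complex, counting only the strongest region of each gene, the word was found at 8 of 18 complex V regions, among them ATP5PO, ATP5MC2 and ATP5PF. It lay at 4 of 37 complex I, 2 of 8 assembly factor, 2 of 4 complex II and 2 of 9 complex III regions. It was found at 0 of 13 complex IV regions within 100 bp, but within 250 bp it was at COX7A2L, COX6A1 and COX6C. The YY1 word AAGATGGCG lay within 250 bp of the summit at 17.9% of member regions and 4.92% of promoter regions. Within 100 bp the shares were 5.26% and 2.26%, beside 3.49% at ribosomal protein and 8.11% at proteasome regions, and by library the member share was 10.5% and 7.37% in PBS and 2.11% and 4.21% in SCF, while the promoter share lay between 2.07% and 2.13%. Of the 18 YY1 matches within 250 bp at member genes, 12 lay within 30 bp of a start site, as at SDHB, UQCRC1, NDUFA9 and NDUFC1, and 429 of 705 did over all genes.

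The ETS word was at 15.8% of member and 12.2% of promoter regions, with 19.8% at ribosomal protein and 21.6% at proteasome regions, and the CCAAT word at 29.5% and 24.0%. The SP/KLF word was at 47.4% and 58.6%, and at 31.4% of ribosomal protein and 51.4% of proteasome regions, with a median GC content of 62.7% at members and 67.7% over promoter regions. Within 100 bp of the summit, words of factors that act downstream of Kit were at few members and at few promoter regions alike. TGANTCA, the AP-1 word, was at 1 member region (1.05%) and 2.84% of promoter regions. The EGR word GCGTGGG was at 4 member regions (4.21%) and 7.0% of promoter regions, and within 250 bp at 15.8% and 16.4%. The word of the cAMP response element, TGACGTCA, was at 1 member region and 1.89% of promoter regions, and within 250 bp at 5.26% and 3.80%. The AGATAA word of the erythroid factor GATA1 was at 5.26% and 4.08%, and at 29.6% of regions away from promoters. The ERR word TCAAGGTCA was at 1 member region and 0.0335% of promoter regions. The ZNF143 word CTACAANTC was at 2 member regions and 1.3% of promoter regions, and the E-box, CACGTG, at 5 and 6.31%. The end of the ETS word and the beginning of the YY1 word are the same letters, so these can overlap. The last comparison counts only the strongest region of each gene, not all 95 regions. On this count, the 18 regions with an NRF-1 word had a median mean rank of 87.4 and the 71 others 85.7. The 27 with a CCAAT word had 89.5, against 85.0 for the rest.

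**Figure D5:**
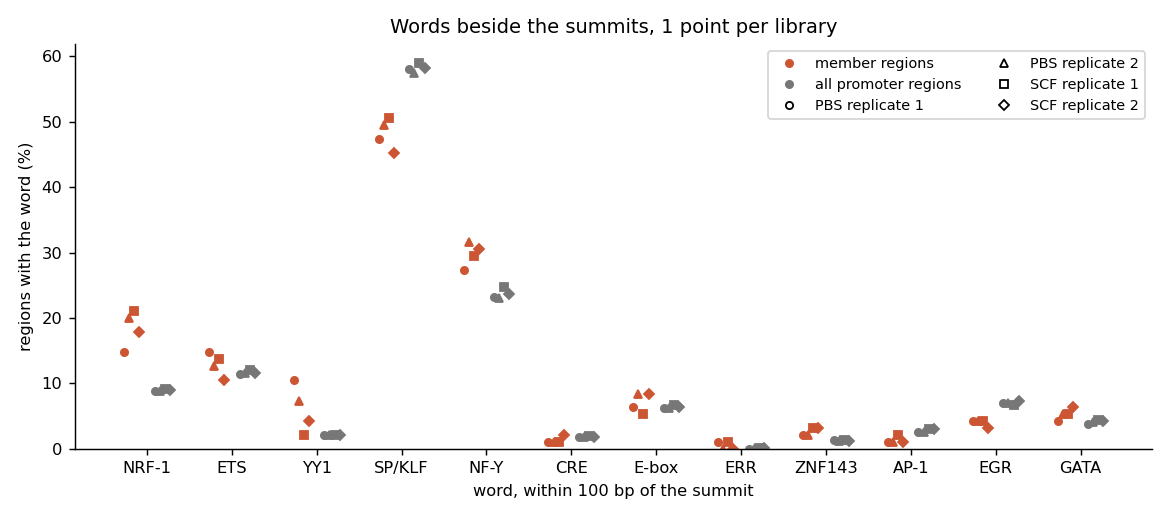
Share of regions with each word within 100 bp of the summit (%, vertical axis, from 0), for the 95 member regions and the 11955 promoter regions called in all 4 lists. Each point uses the summits of 1 library. The NRF-1 points of members lie between 14.7% and 21.1%, and those of promoter regions between 8.77% and 9.18%.

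The other genes of the pathway were accessible as well. Of 69 genes for further assembly factors, electron carriers, mitochondrial transcription and coactivators, 67 had a promoter peak in all 4 lists. PPARGC1A had none, and PPARGC1B had a region called in all 4 lists whose summit lay within 1 kb of a start in 2 of them. Of their 75 regions called in all 4 lists, 1 met the rank gain rule and 0 the rank loss rule. The gain was at TMEM70, which helps assemble ATP synthase, with ranks of 68.7 and 69.6 in PBS and 82.8 and 82.5 in SCF and a fitted difference of 0.32 on the log2 scale that did not pass the adjusted test. For comparison, 0 gains and 4 losses were found among the 86 ribosomal protein regions, and 0 of each among the 37 proteasome regions.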

How the data were processed

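The authors prepared ATAC-seq libraries with Tn5, sequenced paired ends and, by the study's methods, ran the ENCODE ATAC-seq pipeline. The submitters' processing notes name bcl2fastq, Bowtie2 and SAMtools. The peak caller and its version are not given in the sources used here. The methods name hg38, but each deposited list and the series design name hg19, so coordinates were read as GRCh37. Each list belongs to 1 library and replicates were not pooled. The replicate numbers in the names of peaks differ from the labels, and the labels were used.

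The deposited lists give a whole-number score (not compared), a fold enrichment, and −log10 of the p-value and q-value, all as the authors' caller wrote them. The fold enrichment was read as the ratio of reads at the summit to local background, each with the same small constant added. No q-value in the deposited lists was above 0.0497, so weaker sites are absent. A whole number of summit reads and a local background that give both the deposited fold enrichment and −log10 p (Poisson) were found to a relative tolerance of 0.0001 for 100% of peaks with a −log10 p under 300. The recovered values give relative depth, since read totals are unknown, and intervals cover the spread between libraries only.

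Start sites came from all transcripts of protein-coding genes in GENCODE release 44 on GRCh37. Peaks sharing at least 1 bp were merged into regions on 24 chromosomes, the highest peak of each list standing for a region. Fold enrichment was compared with limma 3.58.1 (R 4.3.3) over regions called in all 4 lists, with no covariates; the fit was tested on simulated data first. Words were searched on both strands within 100 bp of the median summit. Python 3.11.15, pandas 2.3.3 and scipy 1.17.1 were used. Alternatives to the ratio, centring, thresholds, windows, replicates and the replicate block were tried. Genes were named if absent from any list, among the 5 highest or lowest by rank or by difference each way, or as paired forms or defining subunits set by name. The members, gene lists and words were chosen with earlier results of these data known. The PPARGC1A and TMEM70 values come from a pathway list set by name, and other examples in the word and overlap paragraphs were chosen after their values were seen. The values of 1 gene that this rule takes are not reported here.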

Additional observations from a re-analysis of the deposited data

How the results depend on the processing

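No member region had an adjusted p under 0.05 in limma with uncentred or quantile-normalised values, recovered reads, −log10 p or the replicate block. The same held at a −log10 q of at least 5 and with equal numbers of peaks. None of the 18995 to 22355 regions in these fits passed either, so this was not particular to members. The smallest adjusted p of a member was 0.45 to 0.672 over these limma fits. With the fits without any 1 library included, the 10 largest differences (5 in each direction) kept their direction in 109 of 110 refits. The exception was COX4I1, which ranged from -0.039 (without SCF replicate 1) to 0.36 with 1 library left out. Such fits leave 1 library in an arm, which is assumed to vary like the other arm. The 10 differences were chosen as the largest of the main fit and refitted on the same libraries, so most directions were fixed in advance. The median member difference was -0.050 with recovered reads, -0.11 with −log10 p, and -0.055 to 0.043 without 1 library. The labels do not say that equal replicate numbers pair samples. The correlation of replicate 1 minus 2 between treatments was 0.01 over 22355 regions, and the replicate block called 0 members and 0 of all regions.

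Among members, rank gains numbered 1 and losses 6 with a gap of 5 points (6.05% and 7.73% of all regions), and 1 and 2 at a −log10 q of at least 5 (2.47% and 4.6%). At equal numbers of peaks there was 1 loss (2.92% of all regions). With any single library left out there was 1 gain, beside 5.94% to 11.2% of all regions, and 2 to 6 losses, beside 7.19% to 14.4%. With a gap of 20 points or recovered reads there were none. SCF-only regions numbered 0 to 2 without 1 library (3.11% to 11.1% of all merged regions) and PBS-only regions 0 to 1 (4.62% to 11.6%). Requiring a larger overlap changes nothing, since every peak lies wholly inside its region. Without the readthrough genes, the count of genes called in all 4 lists was 89. With them it was 89 within 500 bp, which left out NDUFA11 and NDUFB6, 92 within 2 kb, and 79 from the gene 5′ end. The SCF minus PBS difference in genes was -0.5, 0 and 1.5 under these windows, and 0 to 1 without 1 library. The median rank was 81.7 at a −log10 q of at least 5. The NRF-1 share was 32.6% within 250 bp of the summit, where promoter regions had 18.2%, and 13.7% against 4.63% within 50 bp. Read totals, duplicates and fragment sizes are not known here.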
